A study of Mus musculus with 2 samples.

Results

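Goblet cells make the mucus of the gut, and the genes followed here are those of their secreted mucus proteins, of the membrane-bound mucins of the epithelial surface, of the enzymes that build sugar chains on mucins, and of goblet regulators with the guanylin peptides and their receptor. They were chosen by name, as 48 genes of known role, out of 23284 genes listed in each library. Of the 48, 46 had a row, and 40 reached 1 FPKM in either library and were compared, among 11504 genes of the whole series that did so. Muc2 and Muc3 were not analysed here, 3 genes were listed at 0 in both libraries, and 3 more stayed under 1 FPKM. FPKM count the sequenced fragments of a gene per kilobase of its transcript, scaled by the depth of its library.

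The study compared mRNA of small intestinal epithelial cells from miR-215-/- mice with that of miR-215+/+ mice, called knockout and wild type below. miR-215 is a microRNA that is abundant in the gut epithelium, and the title of the study ties it to inflammation and chemokine production in the small intestine. There was 1 library per genotype. The strain, sex, age and number of the mice, the part of the intestine, the way the cells were isolated and the extent of the deletion are not stated in the labels, so nothing below has a replicate check and no p-value is given. Where a gene is called higher or lower, this is its level in the knockout library against that in the wild-type one. The intervals beside folds cover the counting of fragments only.

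Mucus is built around a gel-forming mucin that goblet cells fold, link into polymers, coat with O-linked sugars and release together with smaller proteins. The sugars begin with N-acetylgalactosamine on serine or threonine, are extended as core structures and end in sialic acid, fucose or sulfate. In the small intestine this mucus is loose and permeable, and membrane mucins form a second coat on the enterocytes under it. Guanylin and uroguanylin are small peptides released into the lumen, where their receptor, a guanylate cyclase, sets chloride and bicarbonate secretion and so the water content of mucus.

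Both libraries carried the epithelial genes that the label calls for. The 6 epithelial markers Epcam, Cdh1, Krt8, Krt18, Krt19 and Vil1 summed to 7110 FPKM in the knockout library and 6758 FPKM in the wild-type library, with a median log2 difference of 0.01. None of the 7 markers of Brunner glands and stomach reached 1 FPKM in either library. Depth was close: a 2 kb transcript at 1 FPKM rested on about 18.02 fragments in the knockout library and 17.35 in the wild-type library, and 15700 genes were above 0 in the knockout library and 15445 in the wild-type library. All FPKM summed to 683884 in the knockout library and 750631 in the wild-type library. Mir215, the targeted gene, was listed at 0 FPKM in the knockout library and at 137 FPKM in the wild-type library. At 112 nt it is shorter than an average fragment of these libraries, and its loss cannot be read from polyadenylated RNA at this depth.

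Markers of cells outside the epithelium were not equal between the libraries. All 10 fibroblast and smooth muscle markers were higher in the knockout library, by a median log2 difference of 1.57, with summed levels of 53.9 FPKM in the knockout library and 15.3 FPKM in the wild-type library and none at 0. Macrophage and dendritic cell markers were higher in 7 of 8 cases and summed to 91.7 FPKM in the knockout library and 71.4 FPKM in the wild-type library. Of 5 endothelial markers, 2 passed 1 FPKM and both were higher, while 2 others were at 0 in the wild-type library. T cell markers were split, with 5 higher and 3 lower, and 4 of 5 B and plasma cell markers were lower. The fifth, Igj, the joining chain of plasma cells, was at 58.6 FPKM in the knockout library and 20.3 FPKM in the wild-type library, and the 5 summed to 89.0 FPKM in the knockout library and 59.1 FPKM in the wild-type library. Within the epithelium, 8 of 9 stem and cycling markers were higher, beside 44.0% of all genes. The lower 1 was Lgr5, a stem cell gene, at 1.01 FPKM in the knockout library and 1.91 FPKM in the wild-type library. Of 8 enterocyte markers 7 were lower, with sums of 56296 FPKM in the knockout library and 63309 FPKM in the wild-type library. All 8 enterocyte markers were above 100 FPKM in both libraries, and of the 1123 genes of at least 100 FPKM on average, 22.6% were higher. Paneth markers had 5 higher and 2 lower, enteroendocrine markers 3 higher and 5 lower, tuft markers 3 higher and 3 lower, colon markers 1 higher and 5 lower, and both pancreatic acinar markers over 1 FPKM were lower. The part of these differences in the results below was not tested. In bulk samples, fewer cells of a type and less RNA per cell cannot be told apart.

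As a whole, the goblet and mucin genes sat close to the middle of the transcriptome. Of the 40 compared, 17 were higher and 23 were lower in the knockout library, and their median log2 difference of FPKM plus 1 was -0.04, beside -0.05 for all 11504 genes, of which 44.0% were higher. Scaled to equal sums, both medians were above 0, at 0.08 for the members and 0.07 for all genes. Past 2-fold on that scale, 2 members were higher, Dmbt1 and Muc4, beside 1.34% of all genes, and 0 were lower, beside 2.04% of all genes. Past 1.5-fold, 3 members were higher, with Fut4 added, beside 4.83% of all genes, and 3 were lower, Guca2a, Guca2b and Fut8, beside 7.26% of all genes. These are rules of size, not of significance. On log2 of FPKM plus 1 the other 34 lay within 1.5-fold, as did 87.9% of all genes. By the ratio of FPKM, Agr3 (1.66) and B3gnt6 (0.507) were also past 1.5-fold, both on few fragments. Exons of 11 of the 40 overlap those of another annotated gene. The counting interval of the fold was wholly above 1 for 11 members, wholly below 1 for 16, and held 1 for 13. The same count was not made over all genes, so it has no share to stand beside. These intervals leave out the scaling between libraries. Those of Clca3, Fcgbp and Gucy2c were wholly below 1, yet each of these genes turned to higher under 1 or more other scalings.

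**Figure D1:**
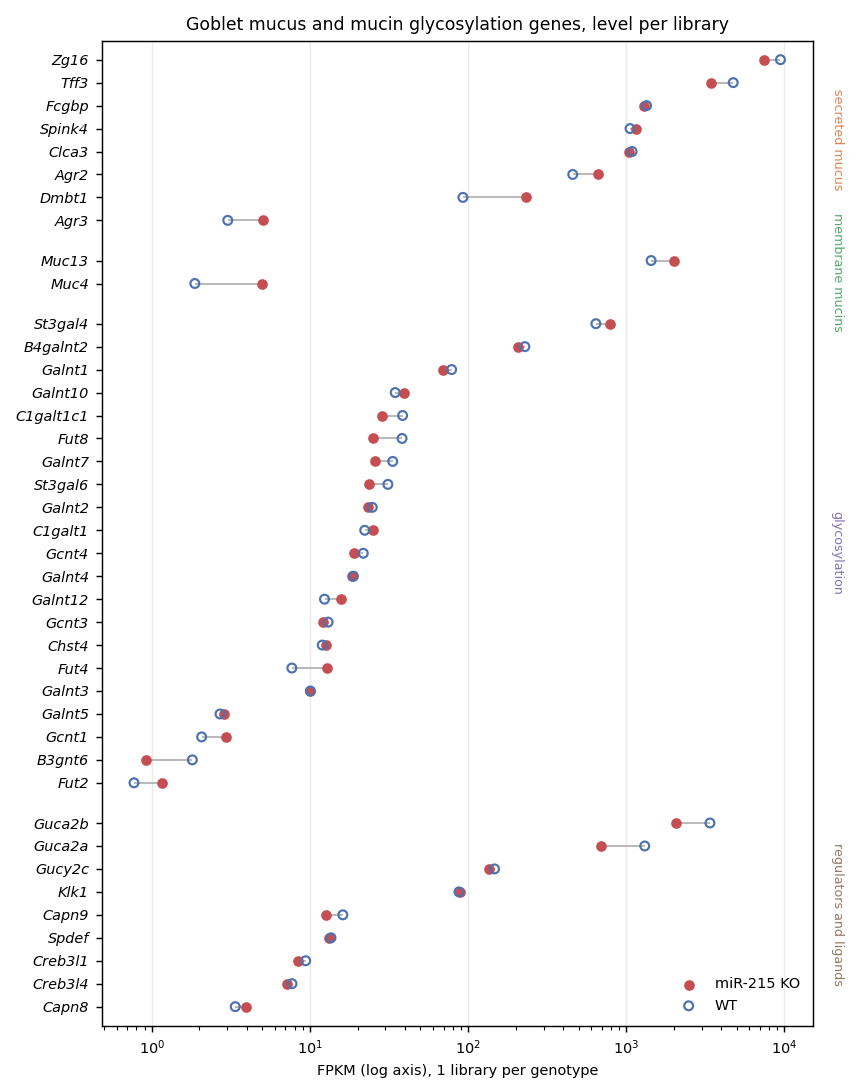
Level of each of the 40 compared genes in the knockout library (filled red) and the wild-type library (open blue), in FPKM on a log axis, by role and with a line joining the 2 libraries. Most pairs overlap or nearly so, and the widest gaps are those of Dmbt1 and Muc4, higher in the knockout library, and those of B3gnt6 and Guca2a, lower in it.

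Several of the secreted mucus proteins were among the most abundant transcripts of the epithelium, while others were low or at 0. The 2 highest were lower in the knockout library, while several less abundant ones were higher. Of the 8 that were compared, 4 were higher and 4 lower, with a median log2 difference of 0.04, or -0.052 with no filter on low values. Their FPKM summed to 15280 in the knockout library and 18231 in the wild-type library, a ratio of 0.838, or 2.23% of all FPKM in the knockout library and 2.43% in the wild-type library. Without Zg16 and Tff3 the sums were 4403 FPKM in the knockout library and 4044 FPKM in the wild-type library, a ratio of 1.09. Counted in this group are Agr2, an enzyme of the endoplasmic reticulum, and its relative Agr3. Agr2 was at 662 FPKM in the knockout library and 459 FPKM in the wild-type library.

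Zg16, a lectin that binds the cell wall of Gram-positive bacteria and keeps them off the epithelium, lies on chromosome 7 of mm10 (127050156 to 127087328, minus strand). It was at 7443 FPKM in the knockout library and at 9440 FPKM in the wild-type library, a fold of 0.789 (95% counting interval 0.777 to 0.800). It ranked 6 by level in the knockout library and 5 in the wild-type library. Tff3, the intestinal trefoil peptide that is secreted with mucin and takes part in epithelial repair, lies on chromosome 17 (31125306 to 31129646, minus strand). It was at 3434 FPKM in the knockout library and at 4747 FPKM in the wild-type library, a fold of 0.723 (0.704 to 0.743). Abundant genes as a class were lower in the knockout library: the 1123 genes of at least 100 FPKM on average had a median log2 difference of -0.19, and 22.6% of them were higher. Against these abundant genes, the log2 difference of Zg16 (-0.34) was at percentile 31.7 and that of Tff3 (-0.47) at percentile 19.3. Both have short transcripts, of 636 and 493 nt, and genes under 1000 nt had a median log2 difference of -0.16 in these libraries while those of at least 5000 nt had 0.06. Among the abundant genes, those under 1000 nt were at -0.18 and those of 1000 to 2000 nt at -0.23, so short transcripts were not the lowest there. With the trend over all genes taken out, Zg16 was at -0.18 and Tff3 at -0.31.

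The large structural and mucus-processing proteins were at nearly the same level in both libraries. Fcgbp, a long protein of von Willebrand type domains that is bound into the mucus gel, was at 1296 FPKM in the knockout library and 1344 FPKM in the wild-type library, a fold of 0.965 (0.956 to 0.973). Clca3, an older symbol of the gene now called Clca1, encodes a secreted metalloprotease that cleaves the mucus network, and was at 1047 FPKM in the knockout library and 1089 FPKM in the wild-type library, a fold of 0.962 (0.948 to 0.976). The sign of both turned to higher when the libraries were scaled to equal sums, to equal upper quartiles or to a median ratio of 1. The ratio of Clca3 to Fcgbp was 0.808 in the knockout library and 0.810 in the wild-type library, while that of Zg16 to Clca3 was 7.11 in the knockout library and 8.67 in the wild-type library. Spink4, a protease inhibitor of goblet granules, was at 1159 FPKM in the knockout library and 1057 FPKM in the wild-type library, a fold of 1.10 (1.03 to 1.17). Against the abundant genes, the log2 difference of Fcgbp was at percentile 70.9, that of Clca3 at 70.0 and that of Spink4 at 87.2. Of the 13 compared members of at least 100 FPKM on average, 4 were below the median of such genes.

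Agr2, a protein disulfide isomerase of the endoplasmic reticulum that mucin production needs, was higher in the knockout library. It lies on chromosome 12 (35992907 to 36004087, plus strand) and was at 662 FPKM in the knockout library and 459 FPKM in the wild-type library, a fold of 1.44 (1.37 to 1.52). Its log2 difference of 0.53 was at percentile 93.8 of all genes and 96.5 of the abundant ones. Relative to Clca3, Agr2 stood at 0.632 in the knockout library and 0.421 in the wild-type library. Agr3, its neighbour in the same family, was at 5.01 FPKM (31 fragments) in the knockout library and 3.02 FPKM (18 fragments) in the wild-type library, and the interval of its fold of 1.66 ran from 0.899 to 3.15.

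Dmbt1 had the widest log2 difference of the 40 compared genes with 1 added to the FPKM, while Muc4 had the larger fold and, with 0.1 added, the wider log2 difference (1.37, beside 1.33 for Dmbt1). It encodes a secreted scavenger receptor glycoprotein that binds bacteria and mucins, and lies on chromosome 7 (131032053 to 131121630, plus strand). Dmbt1 was at 233 FPKM in the knockout library and 92.7 FPKM in the wild-type library, from about 14267 fragments in the knockout library and 5457 in the wild-type library. That is a fold of 2.52 (2.44 to 2.60), and the log2 difference of 1.32 was at percentile 99.4 of all genes and 98.6 of the abundant ones. It was between 1.28 and 1.46 under each scaling and with the length trend removed. Dmbt1 is made by several epithelial cell types and is not a marker of goblet cells alone, and relative to Clca3 it stood at 0.223 in the knockout library and 0.0852 in the wild-type library.

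The remaining secreted genes were at the edge of detection. Tff1 and Tff2, the trefoil peptides of stomach and Brunner glands, were listed at 0 in both libraries, where 3 fragments would be worth 0.614 and 0.814 FPKM in the knockout library and 0.637 and 0.846 FPKM in the wild-type library. Retnlb, a goblet peptide that responds to worms and microbes, was at 0 FPKM in the knockout library and at 0.210 FPKM, about 1 fragment, in the wild-type library.

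**Figure D2:**
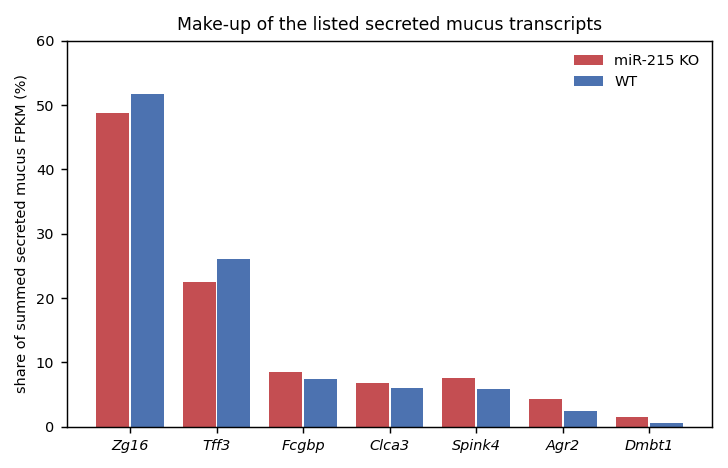
Share of each gene in the summed FPKM of the group of listed secreted mucus proteins (%), in which Agr2 was counted. Knockout is in red and wild type in blue, 1 library each. Zg16 held 48.7% in the knockout library and 51.8% in the wild-type library and Tff3 22.5% in the knockout library and 26.0% in the wild-type library, while Agr2 held 4.33% in the knockout library and 2.52% in the wild-type library.

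Both membrane mucins that were compared were higher in the knockout library, and they differ widely in level. Muc13, the highest of the membrane mucins compared and a signalling mucin of the enterocyte surface, lies on chromosome 16 (33794037 to 33819934, plus strand). It was at 2008 FPKM in the knockout library and 1436 FPKM in the wild-type library, a fold of 1.40 (1.38 to 1.42), and its log2 difference of 0.48 was at percentile 92.6 of all genes and 95.9 of the abundant ones. Muc4, a large membrane mucin that partners with the receptor ErbB2, lies on the same chromosome (32735886 to 32782391, plus strand). It was at 5.01 FPKM in the knockout library and 1.87 FPKM in the wild-type library, a fold of 2.67 (2.27 to 3.15) and a log2 difference of 1.06. These values rest on about 560 fragments in the knockout library and 202 in the wild-type library, over a transcript of 11277 nt. Muc4 is thus a low transcript, with Muc13 at 401 times its level per length in the knockout library and 767 times in the wild-type library. If the counted transcript were the shortest one annotated, the interval of Muc4 would run from 0.381 to 190 and hold 1. Its call past 2-fold was also lost with the length trend removed, at a log2 difference of 0.96.

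Muc4 also shares exon positions with Muc20, which is read from the other strand. Muc20, a membrane mucin known to bind the receptor Met, was at 0.542 FPKM (15 fragments) in the knockout library and 0.192 FPKM (5 fragments) in the wild-type library, a fold of 2.83 (0.998 to 10.2). The library kit keeps the strand, but the sources used here do not say whether the counting used it, so reads of Muc4 and Muc20 may not be told apart. Muc1 was listed at 0 in both libraries, where 3 fragments would be worth 0.147 FPKM in the knockout library and 0.152 FPKM in the wild-type library. Fibroblast and smooth muscle markers moved the same way as Muc4, as given above, and their part in it was not tested.

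**Figure D3:**
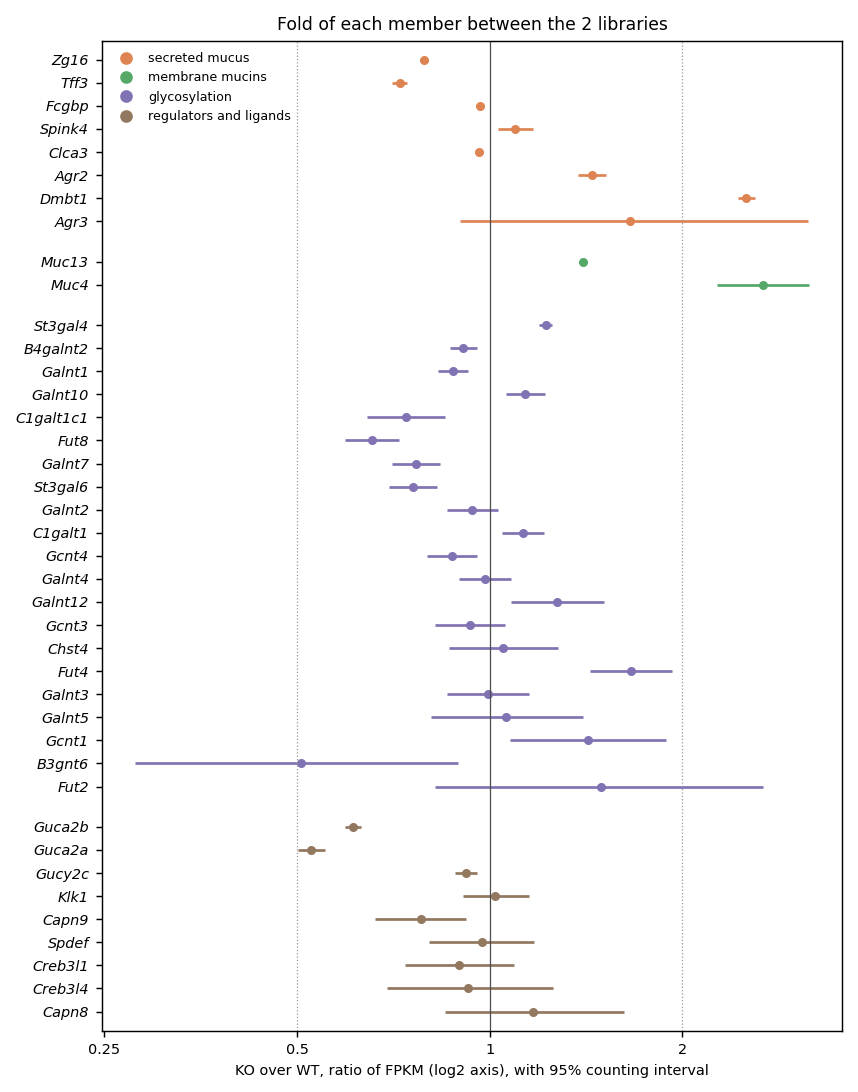
Fold of each compared gene, knockout over wild type, on a log2 axis with its 95% counting interval, coloured by role, with dotted lines at 2-fold. Dmbt1 and Muc4 lie beyond the upper line, Guca2a (0.526) lies nearest the lower one among genes of high level, and the interval of B3gnt6 is wide because it rests on few fragments.

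The enzymes of mucin glycosylation differed little as a group. Of the 22, all were listed and 21 were compared, with 9 higher, 12 lower and a median log2 difference of -0.02, which turned positive under each of 3 other scalings of the libraries. Past 1.5-fold on log2 of FPKM plus 1, 1 was higher, Fut4, beside 4.83% of all genes. On the same scale 1 was lower, Fut8, beside 7.26% of all genes. By the ratio of FPKM, B3gnt6 was further down than Fut8, at a fold of 0.507 on few fragments. The log2 differences of the 21 enzymes ran from -0.59 to 0.67.

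The first step is made by the Galnt enzymes, which set N-acetylgalactosamine on the mucin backbone. Of the 8 in the set, 3 were higher and 5 lower, their median log2 difference was -0.02, and none was past 1.5-fold. Galnt1 was the most abundant, at 68.9 FPKM in the knockout library and 78.7 FPKM in the wild-type library, a fold of 0.876 (0.831 to 0.923). Galnt7, which acts on peptides that already carry a sugar, was at 25.6 FPKM in the knockout library and 33.4 FPKM in the wild-type library, a fold of 0.767 (0.704 to 0.836). Galnt10 was at 39.4 FPKM in the knockout library and 34.6 FPKM in the wild-type library, a fold of 1.14 (1.06 to 1.22). Galnt12, which is expressed in the gut, was at 15.7 FPKM in the knockout library and 12.4 FPKM in the wild-type library, a fold of 1.27 (1.08 to 1.51). The other 4, Galnt2, Galnt3, Galnt4 and Galnt5, lay between 2.86 and 23.3 FPKM in the knockout library and between 2.70 and 24.8 FPKM in the wild-type library. Their intervals all held 1.

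The core enzymes come next. C1galt1, which makes the core 1 structure, was at 25.003 FPKM in the knockout library and 22.2 FPKM in the wild-type library, a fold of 1.13 (1.04 to 1.21). Its chaperone C1galt1c1, without which the enzyme is not active, went the other way, at 28.5 FPKM in the knockout library and 38.5 FPKM in the wild-type library, a fold of 0.740 (0.643 to 0.852). The level of the enzyme relative to its chaperone was 0.877 in the knockout library and 0.576 in the wild-type library. B3gnt6, the core 3 enzyme, was near the limit of detection, at 0.915 FPKM (20 fragments) in the knockout library and 1.81 FPKM (38 fragments) in the wild-type library, a fold of 0.507 (0.279 to 0.893). Gcnt1, Gcnt3 and Gcnt4 add the branch of core 2. Gcnt1 was at 2.94 FPKM in the knockout library and 2.07 FPKM in the wild-type library, a fold of 1.42 (1.08 to 1.89), and Gcnt3 at 12.14 FPKM in the knockout library and 13.03 FPKM in the wild-type library. Gcnt4 was at 18.98 FPKM in the knockout library and 21.74 FPKM in the wild-type library, a fold of 0.873 (0.798 to 0.955). With the shortest annotated transcript the interval of Gcnt1 held 1, as did those of Galnt1 and St3gal6.

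Among the enzymes that end the chains, the sialyltransferase St3gal4 was by far the most abundant of the 22. It lies on chromosome 9 (35046576 to 35119268, minus strand) and was at 786 FPKM in the knockout library and 643 FPKM in the wild-type library, a fold of 1.22 (1.19 to 1.25). The log2 difference of St3gal4 was at percentile 92.8 of the abundant genes. St3gal6, which sets the same linkage, was at 23.6 FPKM in the knockout library and 31.1 FPKM in the wild-type library, a fold of 0.759 (0.696 to 0.828). St6galnac1, which caps the first sugar with sialic acid, stayed under 1 FPKM, at 0.543 in the knockout library and 0.657 in the wild-type library. B4galnt2, which makes the Sda blood group structure of the gut, was at 208 FPKM in the knockout library and 229 FPKM in the wild-type library, a fold of 0.909 (0.866 to 0.955). Chst4, which adds sulfate to N-acetylglucosamine, was at 12.6 FPKM in the knockout library and 12.0 FPKM in the wild-type library.

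The fucosyltransferases went in different directions. Fut4, which makes Lewis type structures, lies on chromosome 9 (14748320 to 14752393, minus strand) and was at 12.8 FPKM in the knockout library and 7.69 FPKM in the wild-type library, a fold of 1.66 (1.43 to 1.92). Fut8, which adds the core fucose of N-linked rather than mucin-type sugars, lies on chromosome 12 (77238125 to 77476338, plus strand) and was at 24.998 FPKM in the knockout library and 38.2 FPKM in the wild-type library, a fold of 0.654 (0.593 to 0.721). Fut2, the secretor enzyme that adds the terminal fucose of gut mucins and that microbes and inflammation induce in mouse small intestine, was low in both, at 1.15 FPKM in the knockout library and 0.772 FPKM in the wild-type library. Its fold of 1.49 had an interval of 0.820 to 2.68.

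The guanylin peptides had the lowest log2 differences of the 40 compared genes with 1 added to the FPKM, while B3gnt6, which rests on few fragments, had a lower fold than either. Guca2a encodes guanylin, a product of goblet and other epithelial cells, on chromosome 4 (119637704 to 119639471, plus strand). It was at 689 FPKM in the knockout library and 1309 FPKM in the wild-type library, a fold of 0.526 (0.502 to 0.552), and its log2 difference of -0.93 was at percentile 2.43 of all genes and 3.92 of the abundant ones. Guca2b encodes uroguanylin, which enterocytes and enteroendocrine cells make, and lies 17135 bases away on the other strand (119656607 to 119658954). It was at 2069 FPKM in the knockout library and 3381 FPKM in the wild-type library, a fold of 0.612 (0.595 to 0.629), with a log2 difference of -0.71 at percentile 4.79 of all genes and 7.30 of the abundant ones. With the length trend taken out, the log2 difference of Guca2a was -0.77 and that of Guca2b -0.55.

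Their receptor did not follow them in size. Gucy2c, the guanylate cyclase of the apical membrane, was at 135 FPKM in the knockout library and 147 FPKM in the wild-type library, a fold of 0.917 (0.883 to 0.954), and its sign turned to higher when the libraries were scaled to equal sums. Its log2 difference was at percentile 60.7 of the abundant genes. Guanylin transcripts per receptor transcript were 5.11 in the knockout library and 8.91 in the wild-type library, and uroguanylin transcripts 15.3 in the knockout library and 23.0 in the wild-type library. Between the peptides, the ratio of Guca2b to Guca2a was 3.003 in the knockout library and 2.583 in the wild-type library. The enterocyte markers, which include other abundant villus genes, were lower in 7 of 8 cases, with a median log2 difference of -0.16. They ran from -0.51 for Alpi, the brush border alkaline phosphatase, to 0.41 for Krt20, a keratin of mature villus cells. The 1123 genes of at least 100 FPKM on average were much like them, with a median of -0.19 and 22.6% higher. The part of enterocyte content in the lower guanylin levels was not tested.

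The starts of these neighbouring genes are shown because both were lower together. Each window runs from 250 bases before to 50 bases after the start in RefSeq (GRCm38.p6), 5′ to 3′ on the strand of the gene, at chr4:119637482-119637781 on the plus strand for Guca2a and chr4:119658896-119659195 on the minus strand for Guca2b. Capitals mark AGATAA, the core bound by GATA factors (TTATCT when read on the other strand), GTTAAT, a core bound by HNF1, and TGTTCT, a hexamer bound by the glucocorticoid receptor.
Guca2a: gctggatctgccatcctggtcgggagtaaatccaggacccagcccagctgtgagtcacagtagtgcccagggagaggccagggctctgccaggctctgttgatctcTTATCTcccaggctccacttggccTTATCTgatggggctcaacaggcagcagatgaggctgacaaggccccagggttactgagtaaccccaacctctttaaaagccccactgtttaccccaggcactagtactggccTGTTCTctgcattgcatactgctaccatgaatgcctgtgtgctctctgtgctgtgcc
Guca2b: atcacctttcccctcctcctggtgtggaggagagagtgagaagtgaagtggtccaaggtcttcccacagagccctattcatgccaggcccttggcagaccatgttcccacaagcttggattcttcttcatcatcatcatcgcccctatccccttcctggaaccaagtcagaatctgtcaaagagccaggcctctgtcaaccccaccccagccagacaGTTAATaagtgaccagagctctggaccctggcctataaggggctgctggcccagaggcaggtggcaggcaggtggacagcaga
AGATAA was found in 2 places in Guca2a and 0 in Guca2b, and in 11.2% of 32851 promoters of the same length. GTTAAT was found in 1 place in Guca2b and 0 in Guca2a, beside 7.10% of promoters, and TGTTCT in 1 place in Guca2a and 0 in Guca2b, beside 18.97%. TTTATNG, a pattern of CDX factors, and the TATA box TATAAA were in neither window and in 10.9% and 13.6% of promoters. All 5 patterns were searched on both strands, and these windows shared none of them.

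The regulators of goblet cells differed little. Spdef, the transcription factor of goblet maturation, was at 13.2 FPKM in the knockout library and 13.6 FPKM in the wild-type library, a fold of 0.972 (0.804 to 1.17). Creb3l1 and Creb3l4, membrane-anchored transcription factors of secretory cells, were at 8.43 and 7.12 FPKM in the knockout library and at 9.40 and 7.70 FPKM in the wild-type library. The calpains Capn8 and Capn9, intracellular proteases of mucus-secreting cells, were at 3.94 and 12.6 FPKM in the knockout library and at 3.37 and 16.1 FPKM in the wild-type library. Of these, the interval lay off 1 for Capn9 alone, at a fold of 0.781 (0.662 to 0.919). Klk1, a secreted kallikrein protease with close relatives in a gene cluster, among which the counting may have split reads, was at 89.3 FPKM in the knockout library and 87.5 FPKM in the wild-type library, a fold of 1.02 (0.907 to 1.15). Over all 9 genes of this group, guanylins and receptor included, 2 were higher and 7 lower, and the median log2 difference was -0.12, or 0.0099 with the libraries scaled to equal sums.

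**Figure D4:**
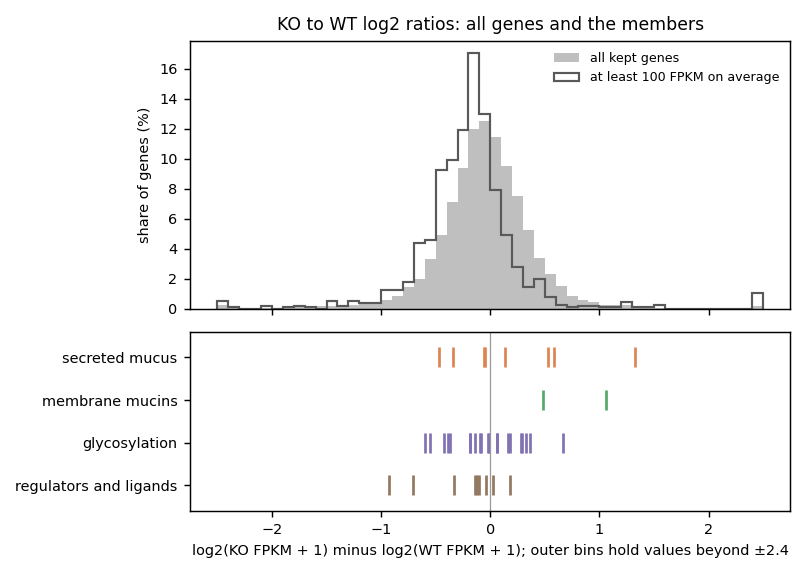
Upper panel: share of genes (%) by log2 difference of FPKM plus 1, knockout minus wild type, for all 11504 compared genes (grey) and the 1123 abundant ones (outline). Lower panel: 1 tick for each compared goblet or mucin gene by role, where the ticks of the guanylins lie in the lower tail, those of Dmbt1 and Muc4 in the upper tail, and most others near the middle.

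The share of these genes with a match to the seed of the microRNA was near that of all genes. miR-215-5p and miR-192-5p, which a different locus encodes, are shown because they share the seed, bases 2 to 8, given in capitals. The mature sequences are those of RefSeq, at chr1:185313610-185313630 and chr19:6264857-6264877 of GRCm38.p6, both on the plus strand.
mmu-miR-215-5p: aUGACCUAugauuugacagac
mmu-miR-192-5p: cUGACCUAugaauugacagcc
The complement of the seed, TAGGTCA, occurred in the longest annotated 3′ UTR of 2 of the 40 compared members, or 5%, and of 752 of 10992 compared genes with a 3′ UTR, or 6.84%. The members had shorter 3′ UTRs, with a median of 759 nt and of 1095 nt over all genes. The sites are printed with the match in capitals. That of Galnt2 is at chr8:124344323-124344329 on the plus strand, position 865 of a 3′ UTR of 2264 nt. That of Fut4 is at chr9:14749234-14749240 on the minus strand, position 1455 of 2375 nt.
Galnt2: taaaactaaaTAGGTCAcctcttttgg
Fut4: ctgcccctgtTAGGTCAggacagttat
Fut4 was higher in the knockout library, at a log2 difference of 0.67, and Galnt2 was at 23.3 FPKM in the knockout library and 24.8 FPKM in the wild-type library, a fold of 0.940 (0.858 to 1.03). Over all genes, the median log2 difference was -0.003 for those with the site and -0.06 for those without it. Transcript length was not matched between these sets of genes. In these libraries the median was -0.16 for genes under 1000 nt and 0.06 for those of at least 5000 nt. The part of length in the difference between the sets was not tested.

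Genes that work beside these members differed in both directions. Lists of 92 other genes of mucus and mucin biology were chosen with earlier results of these data known. Of these genes 65 were compared, with 39 higher and 26 lower, where 44.0% of all genes were higher. The median log2 difference of the 65 was 0.07. Past 1.5-fold 6 of the 65 were higher, beside 4.83% of all genes, and 5 were lower, beside 7.26%. Past 2-fold 1 was higher, beside 1.34%, and 1 was lower, beside 2.04%.

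Of 32 further enzymes of mucin-type sugars, 14 were compared, with 8 higher, 6 lower and a median of 0.08. The sulfotransferase Gal3st2 stood lowest, at 45.8 FPKM in the knockout library and 131 FPKM in the wild-type library, a fold of 0.349 (0.326 to 0.373), and near-identical copies of it are annotated, so its value is uncertain. Gal3st1, which makes the sulfated glycolipid sulfatide, was at 23.7 FPKM in the knockout library and 43.5 FPKM in the wild-type library, a fold of 0.545 (0.479 to 0.621). The galactosyltransferase B4galt4 was at 19.1 FPKM in the knockout library and 35.9 FPKM in the wild-type library, a fold of 0.531 (0.468 to 0.601). Higher were B3gnt7, an enzyme that extends sulfated chains, at 24.8 FPKM in the knockout library and 14.0 FPKM in the wild-type library, a fold of 1.77 (1.55 to 2.04), and B3gnt3, which extends core 1, at 130 FPKM in the knockout library and 91.7 FPKM in the wild-type library, a fold of 1.42 (1.35 to 1.49).

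The supply of activated sugars and sulfate had 11 of 17 genes higher and 6 lower, with a median of 0.07. Consecutive enzymes of UDP-N-acetylglucosamine synthesis were unlike each other. Pgm3 was at 21.0 FPKM in the knockout library and 11.8 FPKM in the wild-type library, a fold of 1.78 (1.51 to 2.08), while Uap1, which makes the final product, was at 44.2 FPKM in the knockout library and 82.7 FPKM in the wild-type library, a fold of 0.534 (0.492 to 0.579). Gmds, of fucose donor synthesis, was at 103 FPKM in the knockout library and 73.5 FPKM in the wild-type library, a fold of 1.40 (1.30 to 1.52). Papss2, which makes the sulfate donor, was the most abundant, at 155 FPKM in the knockout library and 182 FPKM in the wild-type library.

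Goblet transcription factors and secretory machinery, 17 genes, had 10 higher and 7 lower and a median of 0.04, or -0.0062 with a minimum of 5 FPKM. Kdelr3, a receptor that returns proteins to the endoplasmic reticulum, was at 16.5 FPKM in the knockout library and 7.06 FPKM in the wild-type library, a fold of 2.33 (1.79 to 3.05), and its exons overlap those of Ddx17. Vamp8, a fusion protein of mucin granules, was at 268 FPKM in the knockout library and 364 FPKM in the wild-type library, a fold of 0.734 (0.688 to 0.784). Atoh1, the factor that commits cells to the secretory lineage, was at 14.1 FPKM in the knockout library and 11.1 FPKM in the wild-type library, a fold of 1.27 (1.06 to 1.53), and Foxa2, a factor of the same lineage, at 2.42 FPKM in the knockout library and 1.60 FPKM in the wild-type library, a fold of 1.51 (0.939 to 2.52).

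Genes of mucus release, ion transport and the IL-13 response, 15 in all, had 9 higher and 6 lower and a median of 0.11. Mep1a, a subunit of meprin, the brush border protease that detaches mucus, was at 244 FPKM in the knockout library and 380 FPKM in the wild-type library, a fold of 0.643 (0.623 to 0.663). The other subunit, Mep1b, was at 1154 FPKM in the knockout library and 1288 FPKM in the wild-type library. Of the genes related to the goblet metalloprotease, the row Clca4, now Clca3b, was at 87.3 FPKM in the knockout library and 43.2 FPKM in the wild-type library, a fold of 2.02 (1.89 to 2.16), and the rows Clca1 and Clca2, now Clca3a1 and Clca3a2, were at 3.41 and 4.36 FPKM in the knockout library and at 1.86 and 2.74 FPKM in the wild-type library. Reads may be split among these close relatives. Of 11 other mucins, 2 were compared: Cd164 was at 104 FPKM in the knockout library and 140 FPKM in the wild-type library, and Mcam at 1.14 FPKM in the knockout library and 0.459 FPKM in the wild-type library. The gastric and airway mucins Muc5ac, Muc5b and Muc6 were at 0.03 FPKM or less in both.

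**Figure D5:**
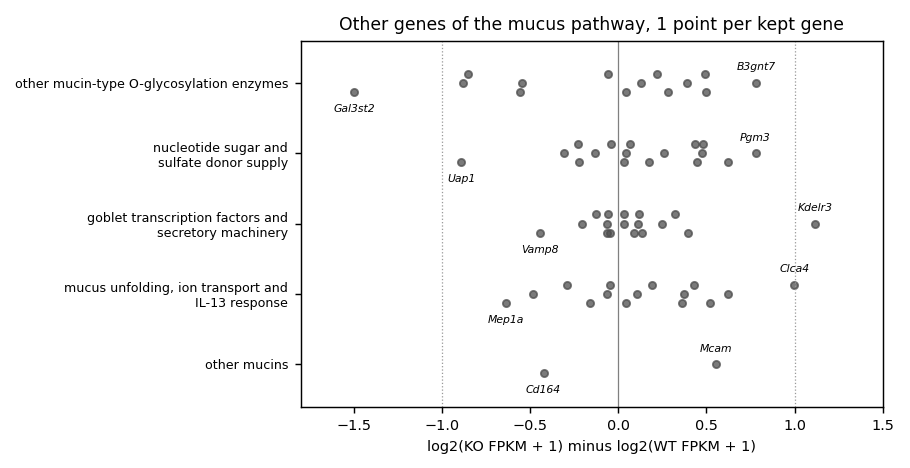
Log2 difference of FPKM plus 1, knockout minus wild type, for the 65 compared genes of the other mucus lists, 1 point per gene, with the lowest and the highest gene of each list named and dotted lines at 2-fold. Points of each list lie on both sides of 0, with Gal3st2 (-1.50) and Kdelr3 (1.12) at the ends.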

How the data were processed

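Per the labels' protocols, 1 knockout and 1 wild-type preparation were processed with an RNeasy kit for RNA and a stranded TruSeq mRNA kit, made for polyadenylated RNA, for sequencing. The deposited values, 1 per gene and library, were taken as FPKM made by the authors, from the tool named and from the values, since no header gives a unit. Cuffnorm 2.2.1, TopHat2 2.0.13, Bowtie2 2.2.3 and SAMtools 0.1.19 on mm10 are listed, per the submitters' processing notes. The sources used here give neither their roles and settings nor the annotation, whether strand was used or how libraries were scaled. With FPKM of 1 library per genotype, no test was made.

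From these values, the log2 difference of FPKM plus 1 was computed for genes that reached 1 FPKM in either library, which understates the difference of low genes. Folds are ratios of the FPKM themselves. Fragments were estimated from the steps between low values: with a mean fragment length of 220 nt taken off the transcript length, 1 fragment per kilobase was worth 0.0988 FPKM (knockout, 401 genes) and 0.1026 FPKM (wild type, 389 genes). Folds carry exact 95% Clopper-Pearson intervals of these numbers, and the limit for a listed 0 is 3 fragments; both cover counting error only, and PCR copies are not independent molecules. Lengths, coordinates and 3′ UTRs came from GENCODE M21 (GRCm38, the assembly of mm10), and 99.0% of compared genes had a length. Sequences came from RefSeq (GRCm38.p6), where 29 of 48 members had a promoter.

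Members and lists were chosen with earlier results of these data known. Members past 1.5-fold and the 2 most abundant of each role are given in full, the others by value or range, and from each pathway list the 4 widest log2 differences and the most abundant gene; 1 gene that this rule names is not reported here. Cell markers are given as counts and sums. Alternatives were other added values, filters, scalings and transcript lengths, and, chosen after seeing the data, removal of the length trend. Scripts were tested on simulated data. Python 3.11.15, pandas 2.3.3, numpy 2.4.6, SciPy 1.17.1 and matplotlib 3.10.9 were used.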

Additional observations from a re-analysis of the deposited data

How the results depend on the processing

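Differences near 0 changed sign with the scaling between libraries. Of the 40 members, 9 did so under 1 or more of 3 scalings: Clca3, Creb3l4, Fcgbp, Galnt2, Galnt3, Galnt4, Gcnt3, Gucy2c and Spdef. Scaling to equal sums moved the median log2 difference of all genes from -0.05 to 0.07, and medians below 0 turned positive with it, to 0.08 for the members, 0.10 for glycosylation enzymes and 0.0099 for regulators. All genes past 2-fold, 154 higher and 235 lower as reported, became 209 and 185 with equal sums, which turns the balance to higher, 191 and 196 with equal upper quartiles and 175 and 212 with a median ratio of 1. With 0.1 added to the FPKM they were 339 and 361, with 5 added 60 and 120, and 97 were higher with a minimum of 5 FPKM. Members past 2-fold higher became 1 with 5 added and 1 with the length trend removed, Dmbt1 each time. Past 1.5-fold, 4 members were higher and 4 lower with 0.1 added. Members past 1.5-fold higher, 3 as reported, became 1 with 5 added, 6 with equal sums, where Agr2, Agr3 and Muc13 were added, 6 with equal upper quartiles, 5 with a median ratio of 1 and 5 with the length trend removed, and those lower, 3 as reported, became 1, Guca2a, with equal sums and 1 with the length trend removed. The median of secreted proteins, 0.04 as reported, was -0.052 with no filter, 0.17 with equal sums, 0.14 with equal upper quartiles, 0.10 with a median ratio of 1 and 0.12 with the length trend removed. That of membrane mucins, 0.77 as reported, was 0.93 with 0.1 added, 0.51 with 5 added and 0.48 with no filter. That of mucus release, ion transport and IL-13 response was 0.24 with equal sums and 0.21 with equal upper quartiles. With no filter, Retnlb (log2 difference -0.28) entered the secreted proteins and Muc20 (0.37) the membrane mucins. Equal sums multiplied every knockout value by 1.0976. Beyond this, the cause of these moves was not tested. With another transcript length, 4 of 77 counting intervals came to hold 1: Muc4, Galnt1, Gcnt1 and St3gal6. No paired analysis was possible because there was 1 library per genotype, and for the same reason no library could be left out. Depth limits B3gnt6, Fut2, Agr3 and Muc20, which rest on few fragments.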
